A study of Mus musculus with 4 samples.

Results

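Rbm3 and Cirbp, the genes of the cold-inducible RNA-binding proteins, were described in Smg6-deficient and in wild-type mouse embryonic stem (ES) cells. They were picked by symbol, as 2 of the 37224 gene identifiers in each library's table, and both passed the filter on low counts that left 20895 genes for testing. RNA-seq libraries were available from 2 samples of Smg6-deficient cells and 2 samples of wild-type cells, both labelled as ES cells from embryo and carrying no further labelled treatment, strain or allele. The labels did not say how Smg6 was removed, or whether the libraries of a genotype came from separate cultures or lines, so spreads and p-values reflect only these libraries and may be technical. The lower level of Rbm3 was already known from these same libraries when the pair was picked. Values of Rbm3 and Cirbp are therefore given as descriptions, with no test, and the question put to them is whether the paralogs move together.

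Rbm3 and Cirbp encode small proteins with 1 RNA recognition motif followed by a glycine-rich tail, and both are known in mammals for rising when cells are cooled mildly below body temperature. RBM3 supports translation and, in mouse brain, the upkeep of synapses. CIRBP binds mRNAs of stress and clock genes and is also known as a secreted inflammatory signal. The product of Smg6 cuts mRNAs in nonsense-mediated decay (NMD), which removes transcripts with a stop codon taken to be premature. In mouse and human cells, inclusion of a temperature-sensitive exon with premature stop codons is known to send the Rbm3 mRNA into NMD at warm temperature.

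Rbm3 (ENSMUSG00000031167) lies on the minus strand of chromosome X from 8138975 to 8145880 (GRCm38, the assembly that mm10 names), and Cirbp (ENSMUSG00000045193) on the plus strand of chromosome 10 from 80165985 to 80172786. The coding sequences, of 465 and 519 nt with the stop codon, matched at 332 of 453 aligned positions (73.3%). The first 2 coding exons are 103 and 107 nt long in both genes, and 148 of their 210 positions matched. Of all 60-nt windows of these exons, the one with the most matches, from coding position 87 to 146, is shown so that the paralogs can be compared base by base. There 47 positions are the same, and the 13 that differ are in capitals. On the genome it runs from 8144637 to 8144971 on chromosome X and from 80169900 to 80170058 on chromosome 10, in each case with an intron inside.
Rbm3: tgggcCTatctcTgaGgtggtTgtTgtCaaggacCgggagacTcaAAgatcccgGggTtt
Cirbp: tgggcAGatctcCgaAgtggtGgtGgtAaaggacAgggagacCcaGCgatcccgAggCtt

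The longest run that both coding sequences share is 11 nt, and none of the 50-nt stretches of their annotated transcripts was common to both, 50 nt being the length of the reads. No read that matches an annotated transcript of one paralog in full therefore matches one of the other. Of the 5024 distinct 50-nt stretches of Rbm3 transcripts, 488 (9.71%) also occurred in transcripts of other genes, chiefly the processed pseudogenes Rbm3-ps (315) and Gm10156 (255). Rbm3-ps and Gm48583, a processed pseudogene that shares 171 of the stretches, are not among the 37224 gene identifiers, so their reads are unknown. Gm10156 held 11 and 7 reads in Smg6-deficient libraries, against 7 and 11 reads in wild-type libraries, and Gm13624, another pseudogene, held 7 or fewer in each library. The coding gene Phospho2, which shares 88 of the stretches, held 3857 and 3489 reads in Smg6-deficient libraries, against 4913 and 4510 in wild-type libraries (log2 fold change -0.43, edgeR adjusted p 0.0088), and how many of these match Rbm3 was not tested. None of the 2693 such stretches of Cirbp occurred in another gene.

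Both genes have annotated transcripts of the class that NMD acts on. Rbm3 has 11 annotated transcripts, of which 6 are coding and 2, Rbm3-207 and Rbm3-208, are annotated as NMD substrates. Both contain an added exon of 271 nt, at 8144175 to 8144445 on chromosome X, whose frame closes after 60 nt. Their stop codons lie 488 and 402 nt before the last exon junction, against 21 to 25 nt in the coding transcripts. Cirbp has 7 annotated transcripts, of which 2 are coding and 1 is annotated as an NMD substrate. The last exons of that one are of 99 nt at 80172414 to 80172512 and of 150 nt at 80172637 to 80172786 on chromosome 10. They put the stop codon 94 nt before the last junction. In the coding transcript Cirbp-202, 0 nt lie between the stop codon and a later junction. The frame of the added Rbm3 exon (8144383 to 8144445, minus strand), the end of the coding frame of Cirbp-202 (80170752 to 80170998, plus strand) and that of the NMD-annotated Cirbp transcript (80170740 to 80172418, plus strand) are shown with their stop codons in capitals, since they are what sets the NMD-annotated forms apart. The deposited values are sums per gene, so neither added exon could be measured here.
Rbm3 added exon: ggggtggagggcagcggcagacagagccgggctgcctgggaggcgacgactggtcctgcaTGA
Cirbp coding end: tatgacagttatgctacacacaacgagTAA
Cirbp alternative end: tacagagacagctatgacagttatggaTGA

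Rbm3 had lower values in Smg6-deficient cells. Its read counts were 6722 and 6002 in Smg6-deficient libraries, against 15828 and 17218 in wild-type libraries. Counted reads totalled 155391181 and 137937779 in the Smg6-deficient libraries and 137643993 and 130888768 in the wild-type libraries. In CPM (reads per 1e6 counted reads, relative to the scaled library size), Rbm3 had 44.1 and 44.5 in Smg6-deficient libraries (44.3 ± 0.28, SD, n = 2), against 113.1 and 128.7 in wild-type libraries (120.9 ± 11.03, SD, n = 2). Both Smg6-deficient libraries lay below both wild-type libraries, by more than the replicates of either genotype lay apart. The fitted log2 fold change was -1.45 (SE 0.092), a level 2.73-fold lower in Smg6-deficient cells. Among all tested genes, 35.9% had Smg6-deficient libraries that all lay below the wild-type ones, and 5.28% had a lower log2 fold change than Rbm3. Since whole populations were sequenced, fewer cells with Rbm3 mRNA and less Rbm3 mRNA per cell cannot be told apart.

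Cirbp had higher values in Smg6-deficient cells. Its read counts were 9223 and 7613 in Smg6-deficient libraries, against 6710 and 5918 in wild-type libraries. On the CPM scale these were 60.5 and 56.4 in Smg6-deficient libraries (58.4 ± 2.88, SD, n = 2), against 47.9 and 44.2 in wild-type libraries (46.1 ± 2.62, SD, n = 2). The genotypes did not overlap here either, but the distance between the nearest libraries was small beside that of Rbm3. The fitted log2 fold change was 0.34 (SE 0.087), a level 1.27-fold higher in Smg6-deficient cells. Smg6-deficient libraries all lay above the wild-type ones in 37.3% of tested genes, and 72.9% of tested genes had a lower log2 fold change than Cirbp. Without wild-type replicate 2 the log2 fold change of Cirbp was 0.27.

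**Figure D1:**
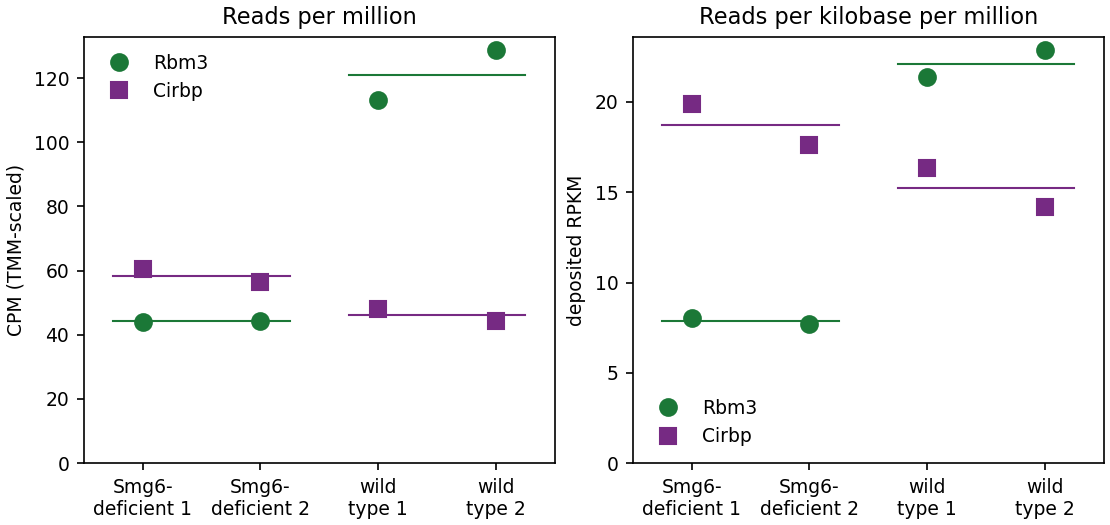
Levels of Rbm3 and Cirbp in each library, as CPM and as the authors' deposited RPKM, with Smg6-deficient libraries left of wild-type libraries; points are libraries and lines are group means. Rbm3 lies at 44.1 and 44.5 CPM in Smg6-deficient libraries and at 113.1 and 128.7 CPM in wild-type libraries, while Cirbp lies at 60.5 and 56.4 CPM and at 47.9 and 44.2 CPM in the same order.

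The paralogs therefore did not move together in these libraries. The ratio of Rbm3 to Cirbp reads, which is free of library scaling, was 0.729 and 0.788 in Smg6-deficient libraries, against 2.36 and 2.91 in wild-type libraries. On the log2 scale it averaged -0.40 ± 0.080 in Smg6-deficient and 1.39 ± 0.21 in wild-type libraries (SD, n = 2 each), a difference of -1.79, or 3.46-fold. Rbm3 supplied 42.2% and 44.1% of the reads of the pair in Smg6-deficient libraries and 70.2% and 74.4% in wild-type libraries. The difference between genotypes in this ratio was larger than the spread between replicates. It is the same contrast by which the pair was chosen, so it carries no test.

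Levels of the 2 genes can be set against each other only per length. In the authors' RPKM (reads scaled by gene length and library size), Rbm3 had 8.04 and 7.69 in Smg6-deficient libraries, against 21.37 and 22.85 in wild-type libraries. Cirbp had 19.90 and 17.59 RPKM in Smg6-deficient libraries, against 16.35 and 14.17 RPKM in wild-type libraries. By RPKM the order of the paralogs was thus opposite in the genotypes. Cirbp was the higher of the pair in Smg6-deficient cells and Rbm3 the higher in wild-type cells. Among tested genes ranked by RPKM, Rbm3 stood at percentile 66.9 in both Smg6-deficient libraries and at percentiles 84.1 and 86.5 in wild-type libraries. Cirbp stood at percentiles 83.5 and 82.4 in Smg6-deficient libraries and at 80.0 and 78.8 in wild-type libraries.

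The size of the RPKM ratio depends on the length by which each gene is divided. The deposited values imply lengths close to the union of all annotated exons, 4698 nt for Rbm3 and 2604 nt for Cirbp, which gave Rbm3 over Cirbp ratios of 0.404 and 0.437 in Smg6-deficient libraries and 1.31 and 1.61 in wild-type libraries. Divided instead by the mRNAs Rbm3-204 (1152 nt) and Cirbp-202 (1321 nt), a length chosen after the data were seen, the ratios were 0.836 and 0.904 in Smg6-deficient libraries and 2.70 and 3.34 in wild-type libraries. With the longest coding mRNA of Rbm3 (2792 nt) they were 0.345 and 0.373 in Smg6-deficient libraries and 1.12 and 1.38 in wild-type libraries. Under these 3 lengths the ratio was below 1 in both Smg6-deficient libraries and above 1 in both wild-type libraries. The shortest coding mRNA of Rbm3, Rbm3-205 (969 nt), was not used, and a shorter length raises the ratio. Which paralog is the higher in Smg6-deficient cells can therefore depend on the length chosen.

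**Figure D2:**
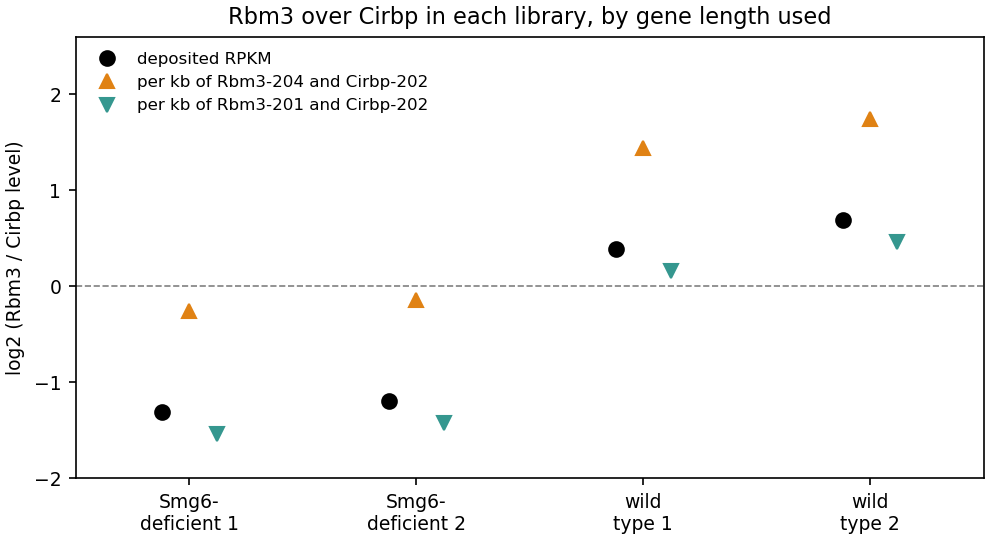
Ratio of the level of Rbm3 to that of Cirbp in each library on a log2 axis, with Smg6-deficient libraries left of wild-type libraries; the 3 symbols stand for the 3 gene lengths, and the dashed line marks equal levels. All symbols of Smg6-deficient libraries lie below the line and all those of wild-type libraries above it, with means of -1.25 and 0.54 by the deposited RPKM.

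Rbm3 sits on chromosome X, whose genes as a whole had lower values in Smg6-deficient cells. The median log2 fold change was -0.76 over 1040 tested X-linked genes, coding or not, against 0.03 over 19430 autosomal genes. By edgeR's quasi-likelihood test (adjusted p under 0.05), 56.7% of X-linked genes were lower and 3.56% higher, while 17.3% of autosomal genes were lower and 21.6% higher. Rbm3 lay 0.69 below the X-linked median on the log2 scale, and 228 of the 1040 X-linked genes (21.9%) had a lower log2 fold change. Cirbp, on chromosome 10, lay 0.33 above the median of the 905 tested genes there, 70.8% of which had a lower log2 fold change. What part of the lower Rbm3 level goes with the X chromosome as a whole was not tested.

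**Figure D3:**
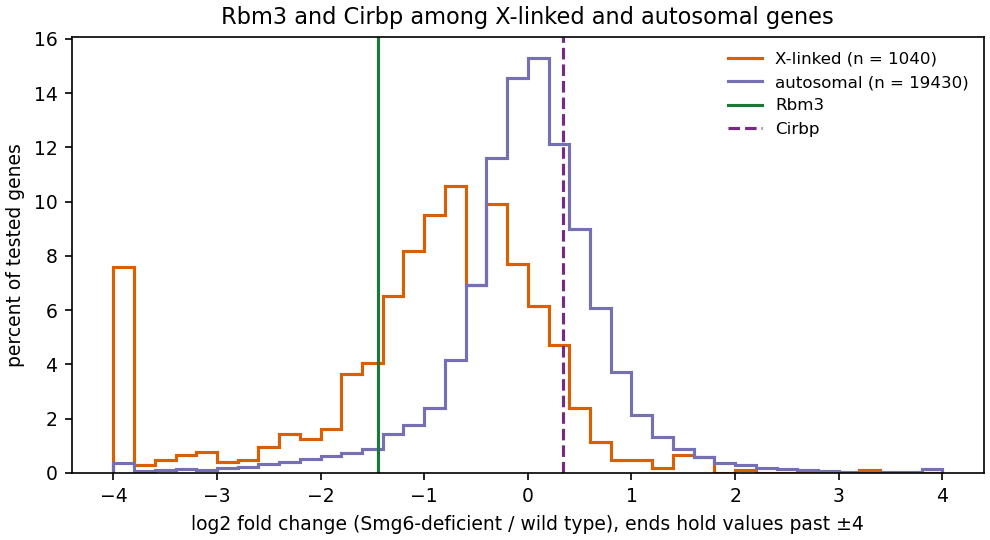
Distribution of the log2 fold change (Smg6-deficient over wild type) as percent of tested genes, for 1040 X-linked and 19430 autosomal genes; vertical lines mark Rbm3 and Cirbp, and the end bins hold values past the axis. Rbm3 at -1.45 lies in the lower part of the X-linked genes, and Cirbp at 0.34 in the upper part of the autosomal ones.

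Genes around Rbm3 were mostly lower too. Of the 20 tested genes nearest to it, 10 on each side (7959260 to 8894964 on chromosome X), 16 were lower in Smg6-deficient cells and 0 higher by the adjusted p (0 also at an unadjusted edgeR p under 0.05, by DESeq2 and by limma-voom), against 19.2% lower and 20.5% higher among all tested genes. Their median log2 fold change was -0.98 against 0.01 over all genes, with a range from -2.94 for Glod5 to 0.18 for the pseudogene Gm9430. Rbm3 lay within that range, with 6 neighbours below it and 14 above. Of those below it, Gm5751, Slc38a5 and B630019K06Rik were under 1 CPM in both Smg6-deficient libraries. Gm5751 had 1 and 2 reads there, against 10 and 13 in wild-type libraries. The antisense gene Gm14820, also lower (-0.86), overlaps the span of Suv39h1, and the library kit does not mark strand. Among the lower neighbours were Ebp, an enzyme of cholesterol synthesis (-1.62), Suv39h1, a histone H3 lysine methyltransferase (-0.68), and Ftsj1, a tRNA methyltransferase (-0.96). The adjacent Wdr13, a WD-repeat gene, averaged 18.5 ± 1.70 CPM in Smg6-deficient and 24.6 ± 3.01 CPM in wild-type libraries (SD, n = 2 each; edgeR adjusted p 0.037). That call was lost without Smg6-deficient replicate 1 (adjusted p 0.24), Smg6-deficient replicate 2 (0.056) or wild-type replicate 2 (0.061).

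On the other side lies Rbm3os, an antisense transcript on the plus strand at 8145429 to 8147964 whose span overlaps Rbm3 by 452 nt and whose exons overlap its exons by 94 nt. Rbm3os had 8.75 and 8.52 CPM in Smg6-deficient libraries, against 18.2 and 16.1 CPM in wild-type libraries. Its log2 fold change was -0.99 (SE 0.11), lower in Smg6-deficient cells with an edgeR adjusted p of 0.0011. The library kit does not mark strand, so reads from the stretch shared by Rbm3 and Rbm3os cannot be told apart.

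Around Cirbp the picture was mixed, with more rises than falls. Of its 20 nearest tested genes (79988584 to 80320537 on chromosome 10), 8 were higher, 2 were lower and 10 did not pass, with a median log2 fold change of 0.38. Those are 40% higher and 10% lower, against 20.5% and 19.2% among all tested genes. Among the 10 nearest of them, 5 on each side, 4 were higher and 0 lower (edgeR), so both lower genes lie farther out. Abca7, a lipid transporter (1.29), Stk11, the kinase upstream of AMPK (0.49), and Cbarp, a regulator of calcium channels (1.02), were higher. Polr2e, a subunit shared by the nuclear RNA polymerases (-0.71), and Gpx4, which reduces lipid peroxides (-0.68), were lower. The adjacent Midn averaged 209.3 ± 9.31 CPM in Smg6-deficient and 154.6 ± 3.45 CPM in wild-type libraries (SD, n = 2 each; edgeR adjusted p 0.0060), a call lost without Smg6-deficient replicate 1 (adjusted p 0.065). The neighbour on the other side, 1600002K03Rik, had a log2 fold change of 0.09 and did not pass (adjusted p 0.62).

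**Figure D4:**
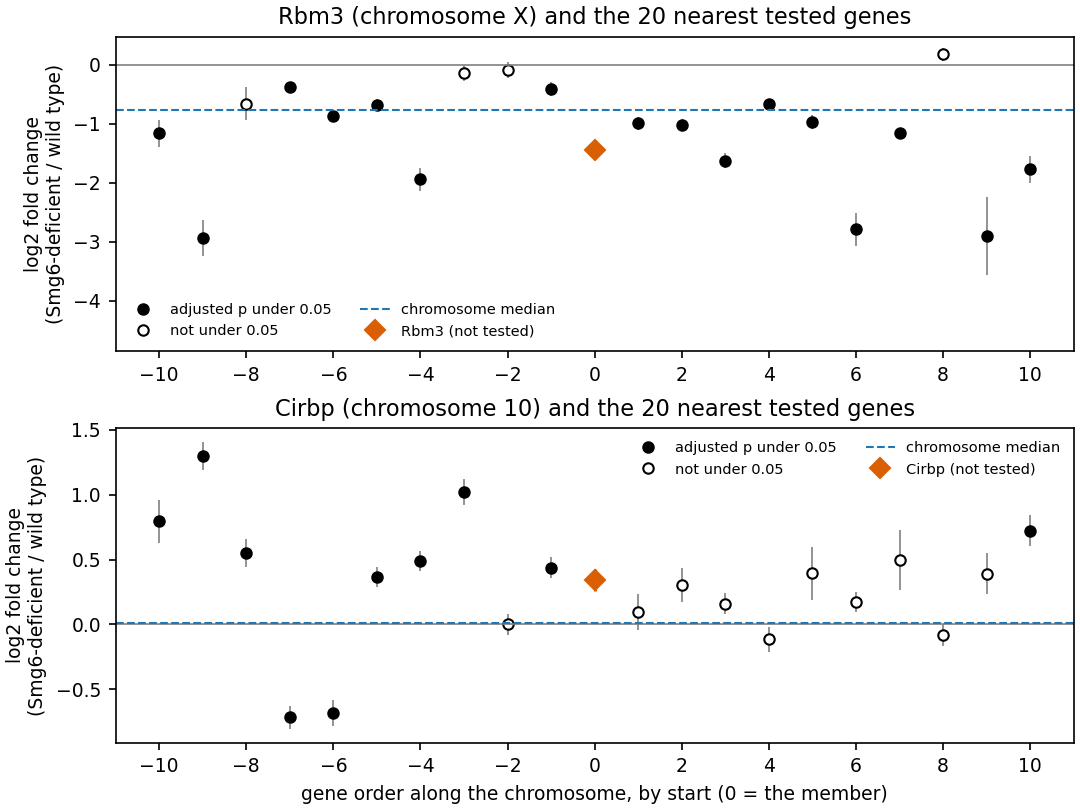
Log2 fold change (Smg6-deficient over wild type, bars are SE) of Rbm3, Cirbp and the 20 tested genes nearest to each, in order along the chromosome; filled points passed the edgeR test and the dashed line is the chromosome's median. Around Rbm3 16 of 20 neighbours are lower and 0 higher, and around Cirbp 2 are lower and 8 higher.

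Each paralog was also set beside genes of its own kind, coding genes sorted by chromosome and by a rule on stop codons. The rule asks for a transcript, annotated as coding or as an NMD substrate, whose stop codon lies more than 50 nt before the last exon junction. It is thus wider than the NMD annotation itself. Of 79 tested X-linked genes with such a transcript, the class of Rbm3, 57 (72.2%) fell and 4 rose, and the median log2 fold change was -0.73. The 565 X-linked coding genes without one had 425 lower (75.2%), 15 higher and a median of -0.98. Of 4178 autosomal genes with such a transcript, the class of Cirbp, 1409 (33.7%) were higher and 570 (13.6%) lower, with a median of 0.16. Among 11624 autosomal coding genes without one, 2499 (21.5%) were higher and 2291 (19.7%) lower, with a median of 0.03.

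X-linked genes of other RNA-binding proteins and RNA factors were nearly all lower. Of 17 tested genes, 16 fell in Smg6-deficient cells and 0 rose by edgeR. The count of rises was 0 also at an unadjusted edgeR p under 0.05, by DESeq2 and by limma-voom. The median log2 fold change of the 17 was -0.85, against -0.76 over the 1040 tested X-linked genes, coding or not. Over X-linked coding genes it was -0.98 for the 565 without a transcript under the stop-codon rule and -0.73 for the 79 with one. Most of those 1040 fell as well (56.7%), and 3.56% rose. Of the 565 X-linked coding genes without a transcript under the stop-codon rule, 75.2% fell. Whether genes of RNA factors fell more often than other X-linked genes was not tested. Rbmx2, a spliceosome-associated protein, averaged 24.2 ± 0.85 CPM in Smg6-deficient and 61.4 ± 2.36 CPM in wild-type libraries, a log2 fold change of -1.34 (SD, n = 2 each; edgeR adjusted p 0.00023). Fmr1, the translation regulator missing in fragile X syndrome (-1.13), and Eif1ax, an initiation factor (-0.95), fell as well. Thoc2, of the mRNA export machinery, had a log2 fold change of -0.34 and did not pass (adjusted p 0.086). Rbm3 at -1.45 was below all of these but Pabpc5, which was at -1.50 and under 1 CPM in every library.

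The wider family of proteins with RNA recognition motifs did not share a direction. Of 14 tested relatives, 6 rose, 3 fell and 5 did not pass, with a median log2 fold change of 0.13. Those are 42.9% rises and 21.4% falls, against 20.5% and 19.2% among all tested genes, so the share of falls was near that of all genes. X-linked Rbmx, a splicing regulator whose RNA recognition motif resembles those of RBM3 and CIRBP, averaged 29.5 ± 2.54 CPM in Smg6-deficient and 67.0 ± 10.8 CPM in wild-type libraries (log2 fold change -1.18; SD, n = 2 each; edgeR adjusted p 0.0010). Its autosomal retrogene copies Rbmxl1 (0.11) and Rbmxl2 (0.14) did not pass, though reads can be split between near-identical copies. Hnrnpdl (0.50) and Hnrnpd (0.70), which bind AU-rich mRNA elements, rose, the call of Hnrnpd being lost in limma-trend on log2(RPKM + 1) (adjusted p 0.065). The 6 rises became 3 without Smg6-deficient replicate 1 and 2 without Smg6-deficient replicate 2, and the 3 falls became 1 in either case.

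Genes with a cold-shock domain, a separate fold despite the name, held 3 rises and 0 falls among 8 tested (median 0.24), which is 37.5% rises against 20.5% among all tested genes, where 19.2% fell. At an unadjusted edgeR p under 0.05 there was 1 fall, that of Ybx1, a translation and packaging factor of mRNA (-0.22, adjusted p 0.066), and DESeq2 and limma-voom each called 1 fall. The rises were Lin28a and Lin28b, which block let-7 maturation, at 0.72 and 0.69, and Carhsp1 at 0.47. Lin28a averaged 425.7 ± 41.4 CPM in Smg6-deficient and 257.7 ± 44.5 CPM in wild-type libraries (SD, n = 2 each; edgeR adjusted p 0.0069), a call lost in limma-trend on log2(RPKM + 1) (adjusted p 0.056). The call of Carhsp1 was lost without Smg6-deficient replicate 2 (adjusted p 0.062), and 2 genes of the list fell without wild-type replicate 2.

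Heat-shock genes, which answer the opposite change of temperature, held 8 rises, 3 falls and 7 genes that did not pass among 18 tested (median 0.19). The shares were 44.4% rises and 16.7% falls, against 20.5% and 19.2% among all tested genes, so here too falls were near the share of all genes. Hspa1b, an inducible HSP70 chaperone, averaged 25.9 ± 2.58 CPM in Smg6-deficient and 3.65 ± 0.43 CPM in wild-type libraries (log2 fold change 2.83; SD, n = 2 each; edgeR adjusted p 0.00012). Its copy Hspa1a was at 2.56, but the pair is nearly identical in sequence and reads may be split between them. Serpinh1, the collagen chaperone, rose by 1.59 on the log2 scale, and its Smg6-deficient libraries were at 322.4 and 438.3 CPM. Other heat-shock genes went the opposite way, among them Hspb8 (-0.62) and Hsp90aa1 (-0.46). When either Smg6-deficient replicate was left out the 8 rises became 5, and without Smg6-deficient replicate 2 the 3 falls became 1.

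Splicing regulators were listed because the added Rbm3 exon is known to be under splicing control, in human cells by HNRNPH1. Hnrnph1 had a log2 fold change of 0.11 and did not pass (adjusted p 0.33), while its X-linked relative Hnrnph2 fell by 0.88 on the log2 scale. The CLK kinases, which phosphorylate SR proteins and are known to respond to body temperature, gave the 3 rises among the 12 genes, Clk2 (0.77), Clk4 (0.65) and Clk1 (0.50). The share of rises, 3 of 12, was near the 20.5% of all tested genes, and the 1 fall is 8.33% of the list, against 19.2% of all tested genes. Clk2 had 50.6 and 51.3 CPM in Smg6-deficient libraries, against 30.3 and 29.6 CPM in wild-type libraries (edgeR adjusted p 0.00083). The other 8 genes, Clk3 and the SR genes Srsf2, Srsf5, Srsf7 and Srsf10 among them, did not pass, and without wild-type replicate 1 the rises became 5.

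Known regulators, partners and targets of the 2 proteins held 3 rises and 3 falls among 11 tested (median -0.08), 27.3% in each direction, near the 20.5% rises and 19.2% falls of all tested genes. Atr, a DNA damage kinase, rose by 0.71 on the log2 scale, with 172.8 ± 0.21 CPM in Smg6-deficient against 105.8 ± 5.0 CPM in wild-type libraries (SD, n = 2 each; edgeR adjusted p 0.0011). Tert (0.62), the telomerase reverse transcriptase, and Creb1 (0.38), a transcription factor downstream of TrkB, rose. Gsk3b (-0.59), a kinase that phosphorylates CIRBP, Txn1 (-0.51), the thioredoxin whose mRNA CIRBP binds, and Rtn3 (-0.56), the reticulon through which RBM3 acts in mouse synapses, fell. Sp1, which drives the Cirbp promoter, was at -0.11 and did not pass (adjusted p 0.42). Without Smg6-deficient replicate 1 the 3 rises became 1.

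Circadian clock genes, whose mRNAs CIRBP is known to bind in mouse fibroblasts, held 5 rises, 4 falls and 8 genes that did not pass among 17 tested (median 0.10). These shares, 29.4% rises and 23.5% falls, were near the 20.5% and 19.2% of all tested genes. Clock, the activator through which CIRBP supports rhythm amplitude, fell by 0.74 on the log2 scale, while its partner Arntl rose by 0.81. Bhlhe40, a repressor, averaged 72.4 ± 8.14 CPM in Smg6-deficient and 136.2 ± 12.1 CPM in wild-type libraries (log2 fold change -0.91; SD, n = 2 each; edgeR adjusted p 0.0014). Cry2, another repressor, was at 40.4 ± 0.20 CPM in Smg6-deficient and 26.6 ± 0.098 CPM in wild-type libraries (0.60, adjusted p 0.0021). When either Smg6-deficient replicate was left out the 5 rises became 3. Over the 7 lists together, 95 genes held 28 rises and 28 falls, with a median of -0.03. Of these falls, 16 were in the list of X-linked RNA-binding genes, which held 0 rises. The equal counts therefore join lists of unlike direction.

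**Figure D5:**
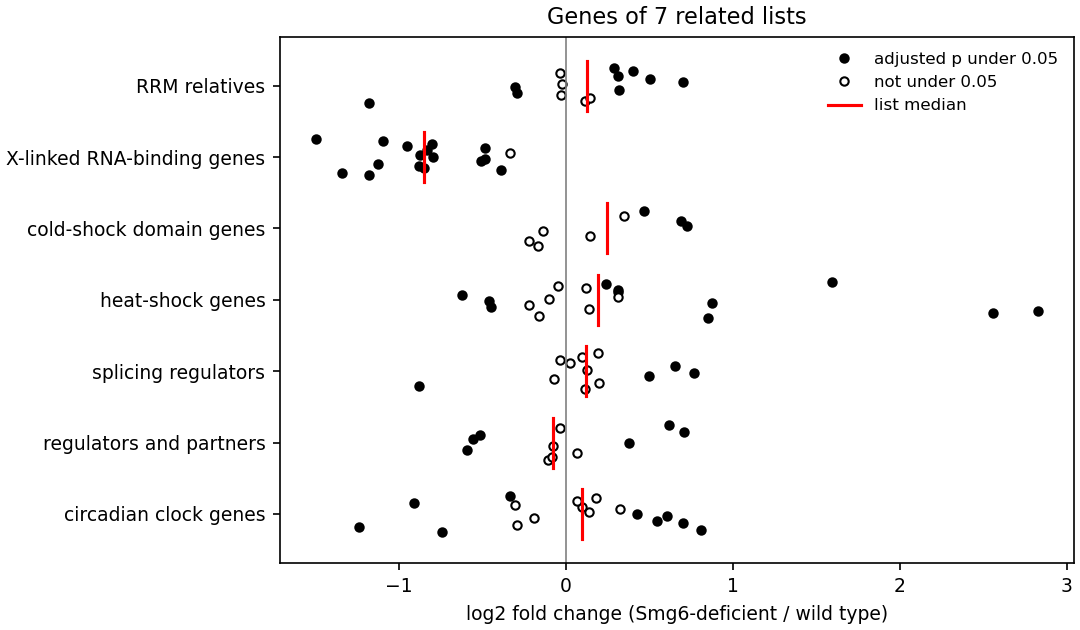
Log2 fold change (Smg6-deficient over wild type) of each tested gene in the 7 lists, 1 row a list, with the list median; filled points passed the edgeR test, and open points did not. The X-linked RNA-binding genes have their median at -0.85, and the other 6 lists have medians from -0.08 to 0.24.

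The pattern of each paralog over the 4 libraries was compared with 12343 genes of at least 2 in mean log2 CPM. The measure was the Euclidean distance between mean-centred log2 CPM values. With 2 libraries a genotype, this distance mostly follows the difference in log2 fold change. The nearest genes therefore have log2 fold changes close to that of the paralog by the way they were picked. Nearest to Rbm3 were Nol4l (0.053), Bhlhb9 (0.065), Cenpi (0.071), Cox7b (0.088) and Mok (0.10), of which Bhlhb9, Cenpi, a centromere protein, and Cox7b, a subunit of cytochrome oxidase, are X-linked. Bhlhb9 had 43.4 and 44.1 CPM in Smg6-deficient libraries, against 116.8 and 125.1 CPM in wild-type libraries. Nearest to Cirbp were Cdt1, a replication licensing factor (0.022), Elob, the elongin B subunit (0.024), Cd80 (0.026), Rnf220 (0.027) and Mrtfa (0.027), all on autosomes. Their log2 fold changes were 0.33 to 0.37, and all 5 lost their calls when either Smg6-deficient replicate was left out. Rbm3 and Cirbp lay 1.80 apart. This put Cirbp in place 9003 in the order of nearness to Rbm3, and Rbm3 in place 12157 in that of Cirbp. These places restate the contrast by which the pair was chosen, so they carry no test.

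The libraries also differed in markers of cell identity, counted here beside the 20.5% higher and 19.2% lower among all tested genes. Of 12 endoderm markers 11 were higher and 1, Afp, was lower, with summed levels of 2164 and 3266 CPM in Smg6-deficient libraries, against 573.3 and 513.1 CPM in wild-type libraries. Pluripotency markers summed to 2212 and 2256 CPM in Smg6-deficient libraries, against 3434 and 2912 CPM in wild-type libraries, with 1 of 8 higher and 5 lower, Nanog at -2.04 and Pou5f1 at -0.49 among them. Fibroblast markers summed to 1716 and 1581 CPM in Smg6-deficient libraries, against 1370 and 996.9 CPM in wild-type libraries, with 5 of 12 higher and 0 lower (edgeR; 0 also at an unadjusted p under 0.05, by DESeq2 and by limma-voom). No marker was at 0 in any library, and only Afp was under 1 CPM in every library. The part of these cells in the values of Rbm3, Cirbp and the lists was not tested. Smg6 itself had 87.6 and 86.2 CPM in Smg6-deficient libraries, against 95.7 and 105.1 CPM in wild-type libraries. Its log2 fold change of -0.21 did not pass (edgeR adjusted p 0.089), but did without wild-type replicate 1 (-0.26, adjusted p 0.015), and a count over the whole gene cannot check a label that names a deficiency.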

How the data were processed

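RNA was extracted with TRIzol, and libraries were prepared with the unstranded TruSeq v2 kit from about 2.5 µg of total RNA and sequenced as single 50-nt reads, per the labels' protocols. Alignment used TopHat2 2.0.9 and mm10, per the submitters' processing notes. The sources used here name neither the counter nor the annotation. The authors deposited whole-number read counts and RPKM values per Ensembl gene for each library. No column of another sample was used.

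Counts were filtered with filterByExpr (minimum 10), TMM-scaled and compared over all 4 libraries by the quasi-likelihood F test of edgeR 4.0.16 under R 4.3.3, with genotype as the sole covariate and Benjamini-Hochberg adjustment over 20895 genes (threshold 0.05). SE is the absolute log2 fold change over the square root of F. Counts of replicates differed beyond sampling noise (chi-square over its degrees of freedom 42.0 in Smg6-deficient, 74.3 in wild type). Symbols (35449 of 37224 identifiers), positions, transcripts and sequences came from GENCODE M21. The procedure was tested on simulated data. Prmt1 was not matched.

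Members, gene lists and markers were chosen with earlier results of these data known. Named genes were Rbm3, Cirbp, Smg6, the adjacent tested genes, up to 3 members of each list with the smallest adjusted p (or up to 2 with the highest level where fewer than 2 passed) and the 5 genes nearest in pattern; others were named after their values were seen. Alternatives were other scalings, no filter or 50 counts in 2 libraries, DESeq2 1.42.0, limma-voom and limma-trend (limma 3.58.1) on log2 RPKM with 1 or 0.1 added, replicate number as a block, other lengths and leaving out each library.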

Additional observations from a re-analysis of the deposited data

How the results depend on the processing

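Rbm3 stayed lower and Cirbp higher in Smg6-deficient cells under every alternative run, and none of the fold changes recomputed under them changed sign. The balance of calls did turn: higher calls outnumbered lower ones with all libraries and TMM (4285 against 4004), while lower ones outnumbered them with library size alone (4629 against 3761 higher), TMM on autosomal genes (4487 against 3871), upper-quartile factors (4367 against 3949) and a filter of 50 counts in 2 libraries (4053 against 3818). Leaving out each library in turn gave log2 fold changes of -1.53 to -1.37 for Rbm3 and 0.27 to 0.41 for Cirbp, a difference between them of -1.94 to -1.64, and counts of 2805 to 5578 genes higher and 2300 to 4899 lower (17 to 35 and 20 to 31 in the 7 lists). Counts were 2805 higher and 2336 lower without Smg6-deficient replicate 1, and 2897 and 2300 without Smg6-deficient replicate 2. A genotype left with 1 library is taken to vary as the other does. The limma-trend fits called 2700 genes higher, 16 of them in the lists, and 3147 lower on log2(RPKM + 1), and 2643 higher, with 15, and 3214 lower on log2(RPKM + 0.1). On log2(RPKM + 1) the rises became 2 among relatives with RNA recognition motifs, 5 among heat-shock, 3 among clock and 1 among regulator genes, and with library size alone 3 among the relatives and 5 among heat-shock genes. Relative to the X-linked median Rbm3 was at -0.69. With 5 neighbours on each side, 8 were lower around Rbm3, and 0 were lower and 4 higher around Cirbp, of 10 genes each. The log2 ratio of Rbm3 to Cirbp per length was -0.20 in Smg6-deficient and 1.59 in wild-type libraries with Rbm3-204, and -1.48 and 0.31 with the longest coding mRNA of Rbm3. With the replicate number as a block, 5074 genes were higher and 4613 lower, Rbm3 was at -1.45 and Cirbp at 0.34. Same-numbered libraries deviated together with a correlation of 0.196 across 12344 genes, but nothing in the labels says that a number pairs libraries. With library size alone the median of all genes was -0.05. Except where a value or the setting itself shows it, the cause was not tested. With 2 libraries a genotype, small changes such as that of Cirbp have little precision.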
